A study of Mus musculus with 179 samples.

Results

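Respiratory complex I is the NADH dehydrogenase at the head of the mitochondrial electron transport chain, and its nuclear-encoded subunits were followed here as mRNA across the brain regions of mice with and without early life stress. The members were the genes named Ndufa, Ndufb, Ndufc, Ndufs or Ndufv with a number, together with Ndufab1. There were 37 of them among the 37810 genes of the male ventral tegmental area table, and the same 37 were found by Ensembl identifier among 32421 genes in the table of 5 further region and sex sets. The male nucleus accumbens table held 24 of the 37 among 16239 genes. The others, among them Ndufa6, Ndufa10, Ndufb7, Ndufb9, Ndufb11, Ndufs4, Ndufv1 and Ndufv2, were not analysed there. The rule leaves out the assembly factors Ndufaf1 to Ndufaf4 and Ndufa4l2. It keeps Ndufa4, which carries a complex I name but is now counted as a subunit of cytochrome c oxidase.

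Complex I takes electrons from NADH through a flavin and a chain of iron-sulphur clusters to ubiquinone, and uses the energy to pump protons across the inner mitochondrial membrane. Core subunits of the matrix arm bind the cofactors, the core subunits of the membrane arm are encoded by mitochondrial DNA, and the many accessory subunits surround both arms and are needed for assembly and stability. Neurons depend heavily on this chain for ATP, and inhibitors of complex I are known to damage midbrain dopamine neurons.

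The members comprised 7 core matrix-arm genes (such as Ndufv1, Ndufv2 and Ndufs1), 13 Ndufa genes, 10 Ndufb genes, 2 Ndufc genes, 4 accessory Ndufs or Ndufv genes and Ndufab1. They lie on 15 chromosomes, with Ndufa1 and Ndufb11 on the X.

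RNA came from 163 libraries of adult C57BL/6 mice, with brain tissue taken 24 h after behavioural testing, and no genetic change was labelled in any group. Mice had standard rearing (Std) or early life stress (ELS), and in adulthood were controls (Ctl), or met defeat (CSDS or Defeat in the labels, males) or sub-threshold variable stress (STVS, females). Male ventral tegmental area (VTA) comprised 4 StdCtl, 4 ELSCtl, 6 StdDefeat and 6 ELSDefeat libraries, with no ELS window in their labels. Male nucleus accumbens (NAc) comprised 4 StdCtl, 6 StdDefeat, and ELS on postnatal days 10 to 20 (4 Ctl, 6 Defeat) or 2 to 12 (4 Ctl, 5 Defeat). Male prefrontal cortex (PFC) and hippocampus (HIP) had 6 libraries in each of StdCtl, StdDefeat, ELSCtl and ELSDefeat. Female VTA, NAc and PFC each had 6 StdCtl, 5 StdSTVS, 5 ELSCtl and 6 ELSSTVS, and ELS in these and in male PFC and HIP was on days 10 to 20. Male VTA and NAc libraries pooled 3 mice each and the others were single mice. All males came from one cohort and all females from another, so sex, adult stressor and cohort cannot be told apart. The extraction protocol names only males, although the sample labels call the libraries of 3 sets female, and the sample labels were followed.

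Depth ran from 13601728 to 23863215 reads per library in male NAc and from 19185904 to 42746141 reads in the other normalised sets, and was unknown for male VTA. By Xist, Ddx3y or Ttr, 14 libraries were doubted for their labelled sex or for choroid plexus RNA. These were 3 in male PFC (StdCtl 1 and 4, StdDefeat 4), 6 in male HIP (StdCtl 1, 4 and 6, ELSCtl 4, ELSDefeat 2 and 5), 2 in female VTA (StdCtl 3, StdSTVS 3), 2 in female NAc (StdSTVS 3, ELSSTVS 1) and 1 in female PFC (StdSTVS 3). StdSTVS 3 of each female region was doubted for low Xist alone, not for Ddx3y. All 14 stayed in the fits, and the results that rest on them are given without them too where that moved a value by over 1.5 times. Dopamine neuron markers (Th, Slc6a3, Slc18a2 and Ddc) were present in every VTA group. Their summed level varied between libraries of 1 group, from 22906 to 108301 normalised reads in female VTA StdCtl.

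Upstream sequence of 4 members is shown because the largest differences between regions, and the single called difference of opposite sign, were in these genes. Each is the 250 bases before the annotated start, 5′ to 3′ on the gene's strand, in the RefSeq annotation of GRCm38.p6. They are Ndufb8 (ENSMUSG00000025204; chr19:44555443-44555692, minus strand), Ndufb2 (ENSMUSG00000002416; chr6:39592315-39592564, plus strand), Ndufa11 (ENSMUSG00000002379; chr17:56717512-56717761, plus strand) and Ndufs3 (ENSMUSG00000005510; chr2:90904722-90904971, minus strand). Capitals mark matches to the searched motifs, NRF1 in Ndufa11 and ETS in Ndufs3.
Ndufb8: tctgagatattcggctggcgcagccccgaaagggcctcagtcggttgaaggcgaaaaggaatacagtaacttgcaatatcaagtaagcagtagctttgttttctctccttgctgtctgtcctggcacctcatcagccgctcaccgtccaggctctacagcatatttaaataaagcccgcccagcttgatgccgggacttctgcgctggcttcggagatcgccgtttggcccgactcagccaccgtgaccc
Ndufb2: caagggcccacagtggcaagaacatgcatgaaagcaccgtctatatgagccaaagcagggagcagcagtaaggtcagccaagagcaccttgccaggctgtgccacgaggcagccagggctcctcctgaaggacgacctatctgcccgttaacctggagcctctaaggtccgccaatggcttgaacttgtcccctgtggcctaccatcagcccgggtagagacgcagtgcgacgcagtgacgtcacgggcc
Ndufa11: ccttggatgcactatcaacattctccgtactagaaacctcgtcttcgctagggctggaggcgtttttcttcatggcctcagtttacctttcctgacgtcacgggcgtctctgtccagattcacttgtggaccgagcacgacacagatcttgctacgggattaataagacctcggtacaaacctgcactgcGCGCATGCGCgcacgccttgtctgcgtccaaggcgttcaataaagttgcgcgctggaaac
Ndufs3: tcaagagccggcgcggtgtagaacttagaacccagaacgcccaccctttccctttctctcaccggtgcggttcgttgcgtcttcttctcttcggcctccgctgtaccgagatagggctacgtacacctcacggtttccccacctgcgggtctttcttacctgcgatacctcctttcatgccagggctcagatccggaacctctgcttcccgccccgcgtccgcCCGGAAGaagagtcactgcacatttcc

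RefSeq promoter windows of 250 bases before to 50 after the start were found for 33 of the 37 members, 35 windows in all. Their median GC content was 59.0% (45.3% to 70.7%) against 52.7% over all 32851 windows, and they held a median of 20 CpG sites against 7. Motifs were searched on both strands. The NRF1 motif GCGCATGC, for a regulator of nuclear genes for mitochondrial proteins, stood in 8.6% of member windows (Ndufa6, Ndufa8 and Ndufa11) and in 2.71% of all windows. The ETS motif CCGGAAG, of the family that holds Gabpa, stood in 11.4% (Ndufb6, Ndufb7, Ndufs3 and Ndufs8) and 8.86%. The YY1 motif AAGATGGC stood in 20.0% (Ndufa3, Ndufa9, Ndufb8, Ndufc1, Ndufs4, Ndufs6 and Ndufs7) and 2.75%. In these 7 members the YY1 match was not within the 250 bases before the start, so the stretch printed for Ndufb8 has no capitals. A match describes the letters only.

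Every member was well detected in male VTA, the only set with values per length. RPKM, reads scaled by exon length and library size, had a median of 62.9 over members and was at least 20 in 34 of 37. Ndufa4 was the highest at 399 ± 45.8 RPKM (SD, n = 20 libraries of all 4 groups, range 336 to 530). It was followed by Ndufb9 at 211 ± 15.0 and by Ndufa6, a small matrix-arm protein, at 142 ± 9.12. At the low end were Ndufb7 (13.8 ± 1.2), Ndufab1, the mitochondrial acyl carrier protein (10.7 ± 0.664), and Ndufb2, a membrane-arm subunit (5.69 ± 0.314, range 5.08 to 6.09). These ranges do not overlap with each other.

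Among core subunits the iron-sulphur subunit Ndufv2 stood at 71.9 ± 5.45 RPKM. Below it were Ndufs8 (69.8 ± 6.18), the flavin- and NADH-binding subunit Ndufv1 (62.9 ± 2.62), Ndufs7 (50.1 ± 3.46), Ndufs1 (43.1 ± 2.19) and Ndufs3 (35.9 ± 2.09). Ndufv2 and Ndufs8 differed by less than their SD. The X-linked genes Ndufa1 (107 ± 9.95) and Ndufb11 (94.5 ± 6.47), both of the membrane arm, were in the upper part of the range. The mitochondrially encoded membrane-arm core transcripts, which are not members, were far higher: mt-Nd1 had 5692 ± 537.6 RPKM, mt-Nd4 5064 ± 427.9 and mt-Nd3 1890 ± 201.9 (SD, n = 20). The exception was mt-Nd4l, listed at 0.135 ± 0.124.

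**Figure D1:**
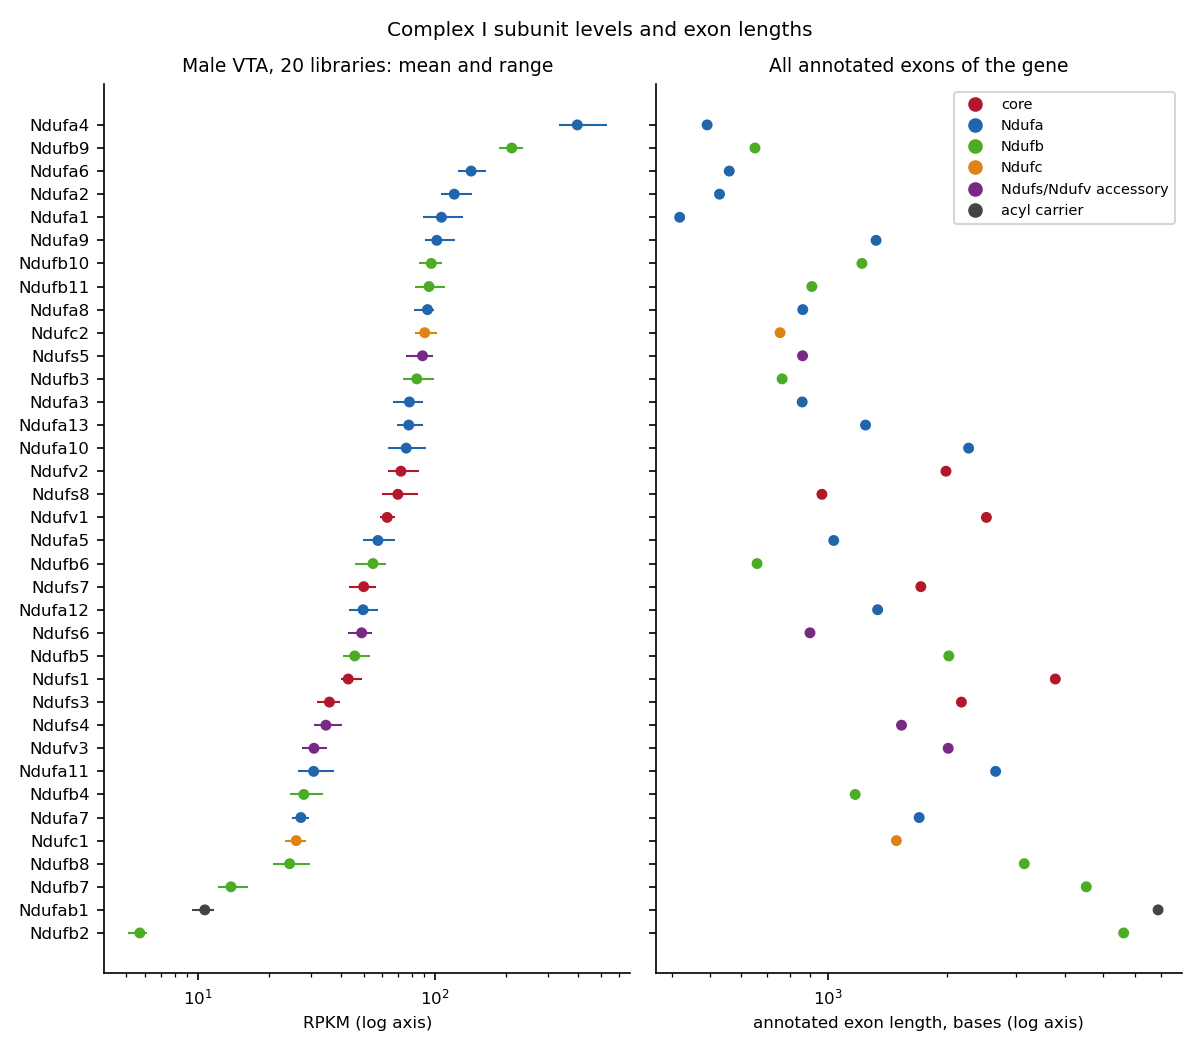
Left, mean RPKM of complex I members in male VTA with the range over 20 libraries as a line (log axis). Right, summed length of all annotated exons of the gene in GENCODE vM1, in bases (log axis). Colours give the subunit family. Ndufa4 is highest at 399 RPKM, and the 3 lowest members, Ndufb2, Ndufab1 and Ndufb7, have the 3 longest exon sums.

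The order by RPKM followed annotated exon length as well as abundance. Ndufb2, Ndufab1 and Ndufb7 have exon sums of 5628, 6883 and 4522 bases in GENCODE vM1, the longest of the members, although their coding lengths are only 318, 471 and 414 bases. Over the 37 members, reads per RPKM unit tracked exon length with Spearman's rho of 0.99, a description across genes of 1 table set against another. RPKM is itself divided by a length, so a high rho follows from how it is built. It bears only on which length was used, not on how RPKM relates to length. By normalised reads in female VTA StdCtl, not divided by length, Ndufab1 ranked 12 of 37, while Ndufb2 stayed near the bottom at rank 36.

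Standard controls were compared between regions to ask where these subunits are most expressed without stress. In females, 32 of 37 members were higher in VTA than in NAc and 34 of 37 were higher in VTA than in PFC at an adjusted p under 0.05. Of all 14000 genes tested, 42.5% were higher in VTA than in NAc, and 40% were higher in VTA than in PFC. The median member log2 fold change was 0.31 against NAc and 0.37 against PFC, where all genes had medians of 0.03 and 0.01. By these means 21 members fell in the order VTA, NAc, PFC and 13 in the order VTA, PFC, NAc. In bulk tissue, fewer cells of a type and less RNA per cell cannot be told apart. Tests in this and the later comparisons were limma's moderated tests on log2(value + 1) with Benjamini-Hochberg adjustment over all genes tested, and each ± beside a log2 fold change is a standard error.

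The largest of these differences were in the membrane-arm accessory subunits Ndufb8 (against NAc) and Ndufb2 (against PFC). Core and accessory members had medians of 0.414 and 0.305 against NAc, and of 0.369 and 0.381 against PFC. Ndufb8 lay between 1600 and 2033 normalised reads in the 6 VTA controls (median 1836), between 924 and 1128 in NAc (median 960) and between 941 and 1097 in PFC (median 1058). All 6 VTA libraries were above every NAc and PFC library. The log2 fold change was 0.87 ± 0.07 against NAc (adjusted p = 2.24e-10) and 0.80 ± 0.07 against PFC (adjusted p = 9e-10). Regions without overlap, in either direction, were common: 22 of 37 members and 63.6% of all genes for VTA against NAc. For VTA against PFC they were 28 of 37 members and 60.8% of all genes.

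Ndufb2 ran from 669 to 836 normalised reads in VTA (median 778), from 382 to 492 in NAc (median 437) and from 332 to 437 in PFC (median 404). It showed the largest member difference from PFC, 0.98 ± 0.07 on the log2 scale (adjusted p = 1.91e-10), and differed from NAc by 0.81 ± 0.07. Ndufa11, a membrane-arm subunit that helps hold the arms together, ran from 1930 to 2538 normalised reads in VTA, 1201 to 1749 in NAc and 1299 to 1660 in PFC. Its VTA libraries did not overlap with either region, with log2 fold changes of 0.71 ± 0.08 and 0.66 ± 0.08. Ndufb4 did not share this pattern: its log2 fold change was -0.08 ± 0.06 against NAc and -0.11 ± 0.06 against PFC (adjusted p = 0.234 and 0.105). Its libraries overlapped, from 936 to 1158 normalised reads in VTA and from 1022 to 1284 in NAc.

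Among the 7 core genes, 6 were called higher in VTA than in NAc and 6 higher than in PFC. Ndufv2 ran from 3763 to 4591 normalised reads in VTA (median 4319), from 2881 to 3239 in NAc (median 3030) and from 2459 to 2712 in PFC (median 2629). The 3 regions did not overlap, and log2 fold changes were 0.69 ± 0.05 against PFC (adjusted p = 7.29e-11) and 0.47 ± 0.05 against NAc. Ndufs8 differed by 0.44 ± 0.06 and 0.40 ± 0.06 (NAc, PFC), and Ndufs7 by 0.43 ± 0.07 and 0.36 ± 0.07. Ndufs1 differed by 0.30 ± 0.05 from NAc and 0.42 ± 0.05 from PFC. Ndufv1, the NADH-binding subunit, differed by 0.30 ± 0.05 from NAc and by only 0.11 ± 0.05 from PFC.

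The core gene Ndufs3 was the exception. It ran from 2154 to 2560 normalised reads in VTA (median 2373), 2288 to 2693 in NAc (median 2603) and 2115 to 2359 in PFC (median 2243), so VTA and NAc overlapped. It was the 1 member called lower in VTA than in NAc, where 38.6% of all genes were called lower, with a log2 fold change of -0.11 ± 0.05 (adjusted p = 0.0479). That call was lost when 12 of the 18 control libraries were left out in turn (adjusted p from 0.0107 to 0.128) and without the filter on low values (0.0795). edgeR kept it (adjusted p = 0.00587). No member was called lower in VTA than in PFC, against 38.8% of all genes, and this count was 0 with edgeR too, while 1 was called when all groups of each region entered.

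The other families moved alike. All 13 Ndufa genes were called higher in VTA than in PFC and 11 of 13 than in NAc, where Ndufa1 (0.09 ± 0.08) and Ndufa5 (0.11 ± 0.06) did not pass. Ndufa12, a matrix-arm subunit, differed by 0.56 ± 0.06 from NAc and 0.57 ± 0.06 from PFC, Ndufa10 by 0.52 ± 0.05 and 0.32 ± 0.05, and Ndufa6 by 0.41 ± 0.06 and 0.62 ± 0.06. Of the 10 Ndufb genes 9 were called higher against each region, among them X-linked Ndufb11 (0.33 ± 0.06 and 0.35 ± 0.06). The acyl carrier Ndufab1 differed by 0.30 ± 0.05 and 0.46 ± 0.05. Of the 4 accessory Ndufs and Ndufv genes, 3 were called higher than in NAc and 4 than in PFC. The one not called against NAc was Ndufs4 (-0.07 ± 0.05), an accessory subunit of the NADH-oxidising module whose loss causes a Leigh-like encephalopathy in mice. Ndufa4 differed by 0.30 ± 0.07 and 0.27 ± 0.07.

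**Figure D2:**
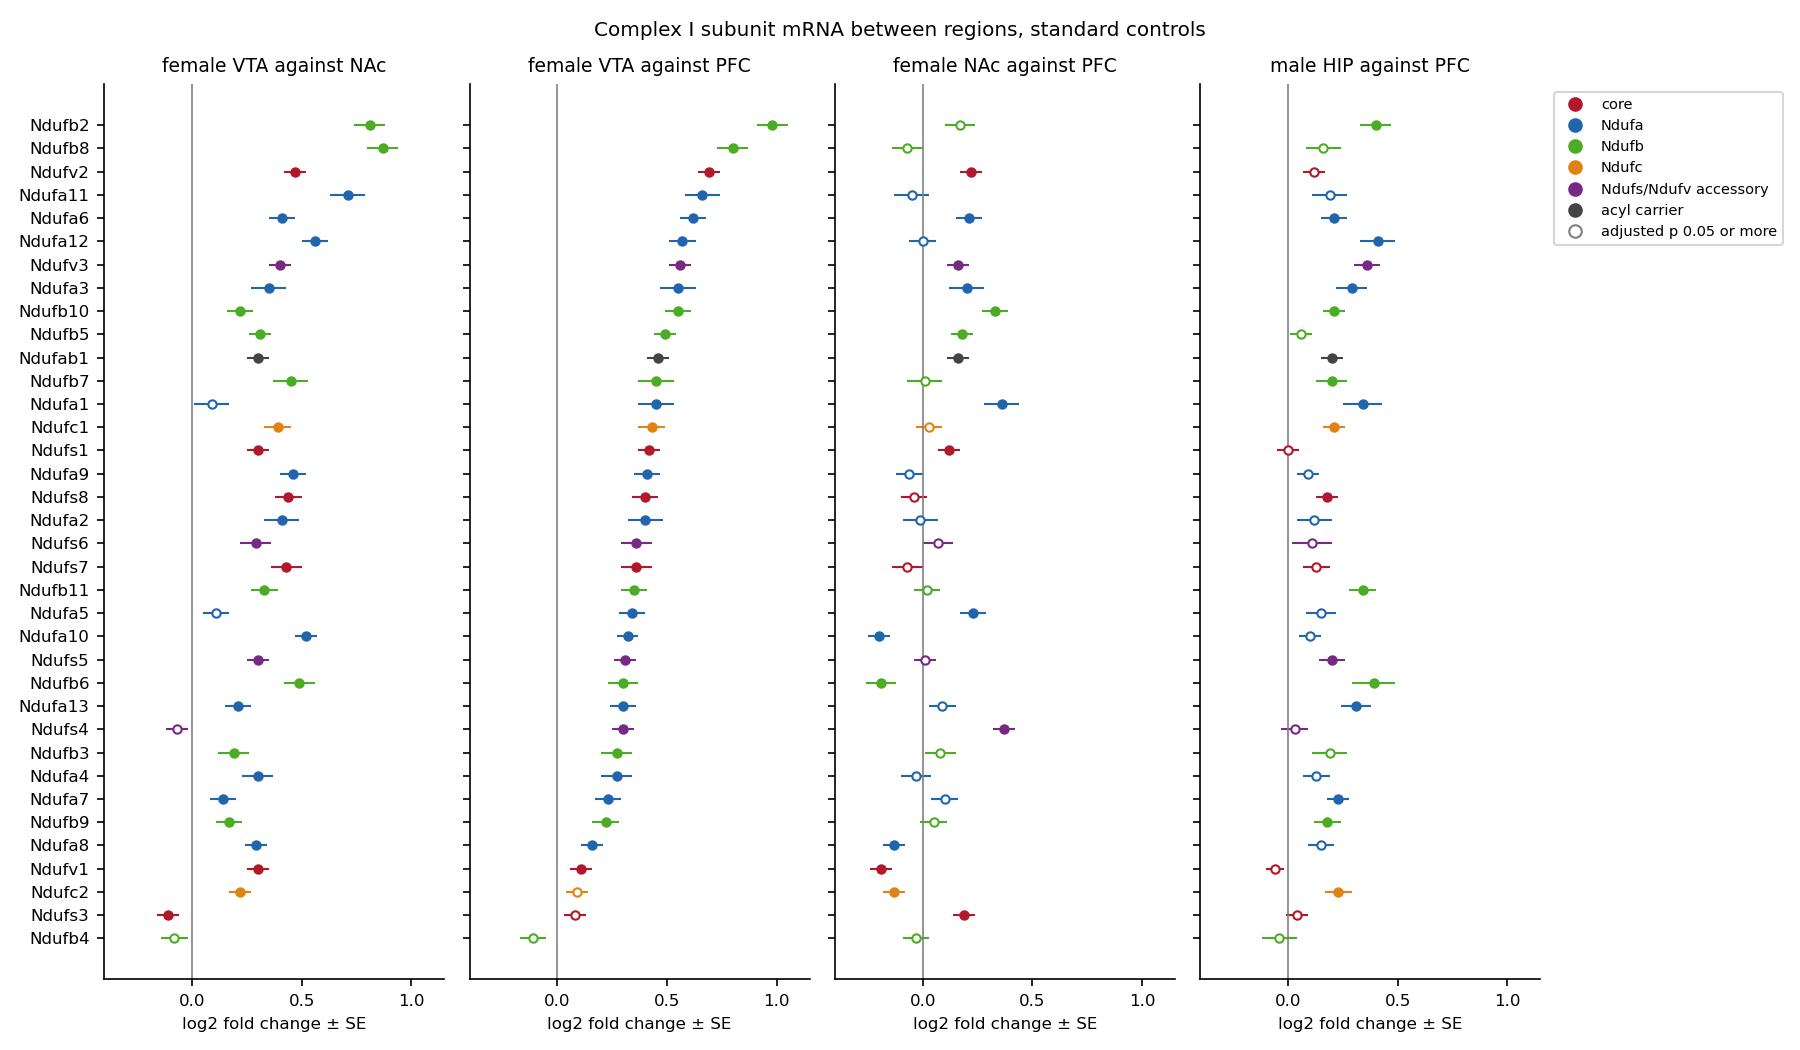
Log2 fold change ± SE of complex I members in 4 region contrasts of standard controls (6 libraries a region), ordered by the female VTA against PFC value. Filled points passed an adjusted p of 0.05 and open points did not; colours give the subunit family. Most points of the first 2 panels lie above 0, Ndufb2 and Ndufb8 farthest, while the NAc against PFC values lie on both sides.

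Between NAc and PFC the members went both ways, with more called higher in NAc than lower. Of the 37 members 12 were called higher in NAc and 5 lower, against 35.7% and 34.7% of all genes, and the median was 0.03. The split was 13 and 2 with quantile normalisation and 14 and 2 with edgeR. The 2 regions did not overlap in 6 of 37 members, against 49% of all genes. Ndufs4 showed the largest difference: it ran from 1437 to 1609 normalised reads in NAc and from 1117 to 1298 in PFC, without overlap, a log2 fold change of 0.37 ± 0.05 (adjusted p = 3.71e-06). Ndufa1 (0.36 ± 0.08), Ndufb10 (0.33 ± 0.06), Ndufa5 (0.23 ± 0.06), Ndufv2 (0.22 ± 0.05) and Ndufs3 (0.19 ± 0.05) were also higher in NAc. Ndufa10 (-0.20 ± 0.05), Ndufb6 (-0.19 ± 0.07), Ndufv1 (-0.19 ± 0.05), Ndufa8 (-0.13 ± 0.05) and Ndufc2 (-0.13 ± 0.05) were lower. Of these calls, Ndufa10, Ndufv1 and Ndufa8 were lost with quantile normalisation and Ndufb6, Ndufa8 and Ndufc2 with edgeR. Core subunits stood on both sides, with Ndufv2 and Ndufs3 higher and Ndufv1 lower.

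In males, 18 of 37 members were called higher in HIP than in PFC and 0 lower, against 23.4% and 23.3% of all genes, and the median was 0.18. With the doubted libraries left out 14 were called, and edgeR called 21 higher and 0 lower. All but 1 of the called members were accessory. HIP and PFC did not overlap in 8 of 37 members, against 26.4% of all genes. Ndufa12 ran from 1601 to 2098 normalised reads in HIP (median 1728) and from 1213 to 1504 in PFC (median 1352), without overlap, a log2 fold change of 0.41 ± 0.08 (adjusted p = 0.000961). Ndufb2 (0.40 ± 0.07), Ndufb6 (0.39 ± 0.10), Ndufv3 (0.36 ± 0.06, adjusted p = 0.000302), Ndufa1 (0.34 ± 0.09) and Ndufb11 (0.34 ± 0.06) followed. Of the 7 core genes only Ndufs8 was called (0.18 ± 0.05). The core median was 0.04 and the median of the 30 accessory members was 0.20, and other genes with a coding length under 600 bases had a median of 0.06 against -0.02 for those of 3000 or more. Levels in PFC of the unstressed sexes lay close together, 10.62 ± 0.04 in females and 10.63 ± 0.11 in males as the mean of log2(reads + 1) over members (SD, n = 6 each). The male value was 10.59 ± 0.12 without the libraries doubted by Xist. Choroid plexus markers were higher in HIP than in PFC by a median of 4.50 on the log2 scale, and their part in these values was not tested.

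**Figure D3:**
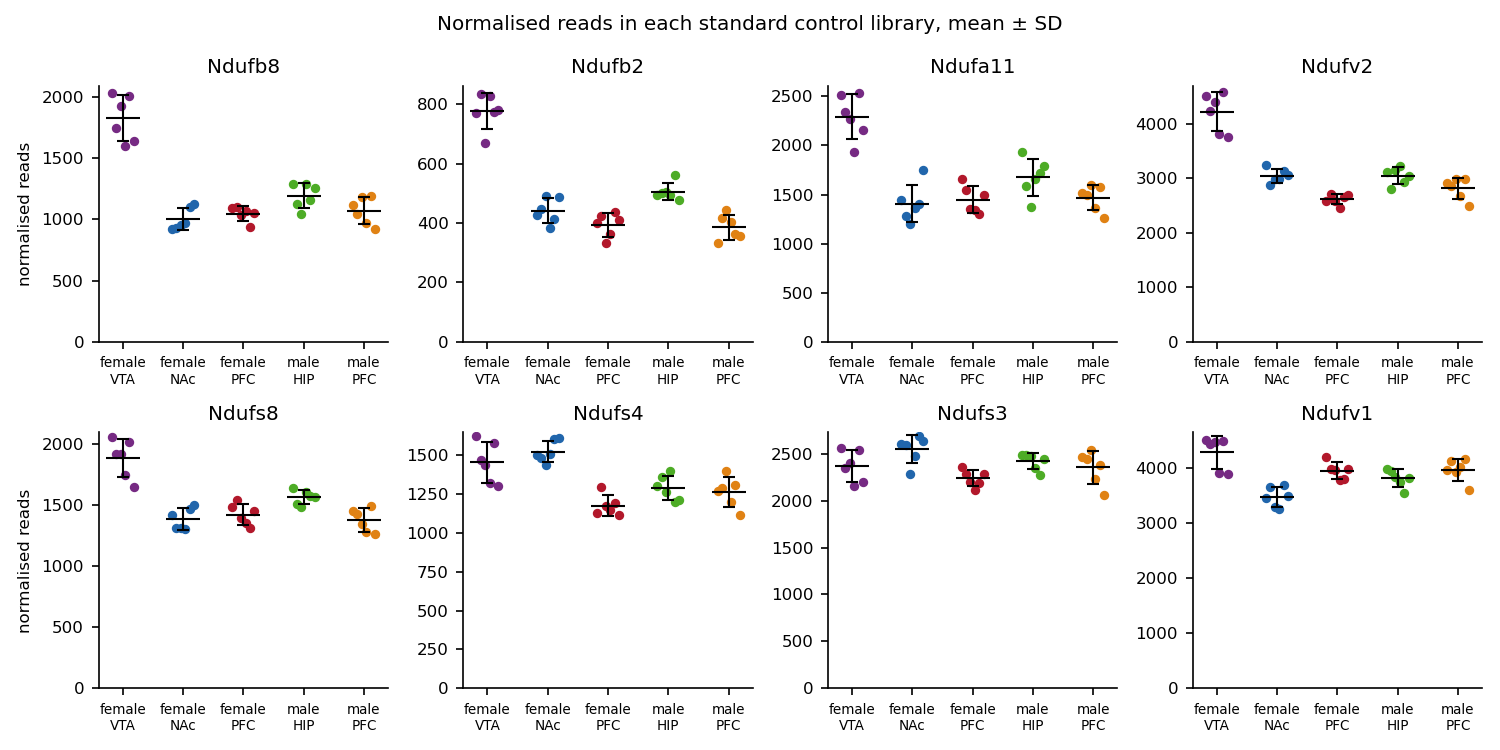
Normalised reads of 8 members in every standard control library, with mean ± SD, in 5 region and sex sets (axes start at 0). Ndufb8, Ndufb2, Ndufa11 and Ndufv2 are higher in female VTA than in female NAc and PFC without overlap, while Ndufs4 and Ndufs3 overlap with NAc. Of all genes, 63.6% (VTA against NAc) and 60.8% (VTA against PFC) had no overlap between the regions.

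Other parts of oxidative metabolism were read from lists set beside the members. In VTA against NAc, called higher were 4 of 4 complex II genes, 6 of 9 of complex III, 8 of 10 of complex IV, 12 of 15 of ATP synthase and 11 of 11 of the citric acid cycle, with medians from 0.31 to 0.48. Against PFC these counts were 4, 7, 8, 13 and 10. Ogdh, a citric acid cycle dehydrogenase, differed by 0.73 ± 0.06 from NAc and 0.69 ± 0.06 from PFC, and Cox5a of complex IV by 0.71 ± 0.08 and 0.64 ± 0.08. Of 11 complex I assembly factors, 5 were higher and 4 lower than in NAc, and 7 higher and 1 lower than in PFC. For all of these lists, the shares of all genes called were 42.5% higher and 38.6% lower than in NAc. They were 40% and 38.8% against PFC. The assembly factor Ndufaf2 differed by 1.09 ± 0.08 and 1.00 ± 0.08. Of 12 regulators of mitochondrial biogenesis 4 were higher and 7 lower than in NAc. The coactivator gene Ppargc1a was higher by 0.98 ± 0.09, while Gabpa, an ETS factor, was lower by -0.65 ± 0.06 and Nrf1 by -0.29 ± 0.06. Against PFC, 5 regulators were higher and 5 lower, and Gabpa (-0.01 ± 0.06) and Nrf1 (0.04 ± 0.06) did not pass. Yy1, the gene for the factor of the third motif, was lower in VTA by -0.53 ± 0.05 against NAc and -0.38 ± 0.05 against PFC (adjusted p = 1.27e-06).

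Markers of oligodendrocytes and dopamine neurons had larger medians between these regions than the members did. All 6 oligodendrocyte markers were higher in VTA, by medians of 1.65 against NAc and 3.54 against PFC, with summed levels of 467737 to 635954 normalised reads in VTA and medians of 151631 in NAc and 42801 in PFC. All 4 dopamine neuron markers were higher, by medians of 5.56 and 6.97. General neuron markers had medians of -0.20 and -0.28, and all 5 microglia markers were lower, by -0.57 and -0.56. The part of cell makeup in the member differences was not tested. Other genes with coding lengths under 600 bases had medians of 0.09 (NAc) and 0.10 (PFC), below the member medians.

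Rearing and adult stress were compared within each region and sex. No gene and no member was called in any of the 41 contrasts, so the background was 0% in each, and edgeR also called 0 members in every contrast of the sets with recovered reads. Between 187 and 2337 genes per contrast had an unadjusted p under 0.05. What follows gives sizes and counts at that unadjusted threshold. Over all genes, from 37.3% to 60.8% lay above 0 in a contrast. Members varied together, so their counts above or below 0 are not independent observations. Contrasts that share a control group are not independent of each other.

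In female NAc the members were highest after variable stress alone. The mean of log2(reads + 1) over members ran from 10.58 to 10.79 in StdCtl (median 10.66) and was 10.68 to 11.0 in the 5 StdSTVS libraries (median 10.79), so the groups overlapped. The median member log2 fold change was 0.15, 35 of 37 were above 0, and 13 had an unadjusted p under 0.05 against 6.16% of all genes. Without StdSTVS replicate 5 the median was 0.10. Ndufa7, an accessory subunit of the matrix arm, had the smallest p: its levels were 1234, 1040.1, 1276, 1212 and 1589 normalised reads in StdSTVS and 924 to 1182 in StdCtl (median 1084). The libraries overlapped through 1 StdSTVS library, and the log2 fold change was 0.24 ± 0.09 (adjusted p = 0.730). In ELSSTVS Ndufa7 was back between 977 and 1218 (median 1070).

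The core median in that contrast was 0.05, with 6 of 7 core genes above 0, and the accessory median was 0.18. Among core genes only Ndufs8 had p under 0.05 (0.15 ± 0.07). Accessory members with p under 0.05 included Ndufs6 (0.22 ± 0.10), Ndufb4 (0.19 ± 0.08), X-linked Ndufb11 (0.19 ± 0.08) and Ndufa4 (0.18 ± 0.08). The difference between core and accessory members was not tested. Other genes under 600 coding bases had a median of 0.09 and those of 3000 or more -0.06. Complex III, complex IV and ATP synthase lists had medians of 0.16, 0.18 and 0.14, and the citric acid cycle 0.02. All 5 measured blood markers were higher, by a median of 0.99, with sums of 946 to 10457 normalised reads in StdSTVS and 751 to 1241 in StdCtl. The part of coding length and of blood in the member values was not tested.

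The female NAc interaction, which asks whether variable stress acted alike after both rearings, had a median of -0.23, with 35 of 37 members below 0. Of these 11 had an unadjusted p under 0.05 against 7.94% of all genes, led by Ndufa7 (-0.36 ± 0.13), Ndufs8 (-0.24 ± 0.09) and Ndufa8 (-0.26 ± 0.10). Group means over members were 10.68 ± 0.09 in StdCtl, 10.81 ± 0.12 in StdSTVS, 10.75 ± 0.10 in ELSCtl and 10.68 ± 0.11 in ELSSTVS (SD). The smallest adjusted p of a member was 0.612. Other genes under 600 coding bases had a median of -0.15, and blood markers -1.23.

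Male HIP showed the opposite sign after defeat alone. The member mean ran from 10.74 to 10.89 in StdCtl (median 10.79) and from 10.60 to 10.89 in StdDefeat (median 10.66). In StdDefeat 5 libraries were at or below 10.69, under every control, and replicate 4 was at 10.89. The median member log2 fold change was -0.12, with 34 of 37 below 0, and 14 had an unadjusted p under 0.05 against 14.4% of all genes. X-linked Ndufb11 had the smallest p: 1985 to 2496 normalised reads in StdCtl (median 2267) and 1755 to 2263 in StdDefeat (median 1859), overlapping, with -0.23 ± 0.06 on the log2 scale (adjusted p = 0.287). Ndufa1, the other X-linked member, had -0.33 ± 0.11. Ndufb10 (-0.16 ± 0.05) and the core subunit Ndufs8 (-0.16 ± 0.05) followed.

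The core median in that contrast was -0.04 and the accessory median -0.13, with other genes under 600 coding bases at -0.03. Complex III, complex IV and ATP synthase lists had medians of -0.12, -0.11 and -0.12. Choroid plexus markers were lower by a median of -3.98, since their sums ran from 435 to 276114 normalised reads in StdCtl and from 324 to 828.5 in StdDefeat. Dentate granule cell markers were higher by 1.36, blood markers by 1.17, and oligodendrocyte markers had a median of -0.57. With the doubted libraries left out the member median was -0.10, and the part of the other markers was not tested. The HIP interaction had a median of 0.14, with 32 of 37 above 0 and 8 at p under 0.05 against 11.8% of all genes, but 0.07 without the doubted libraries.

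**Figure D4:**
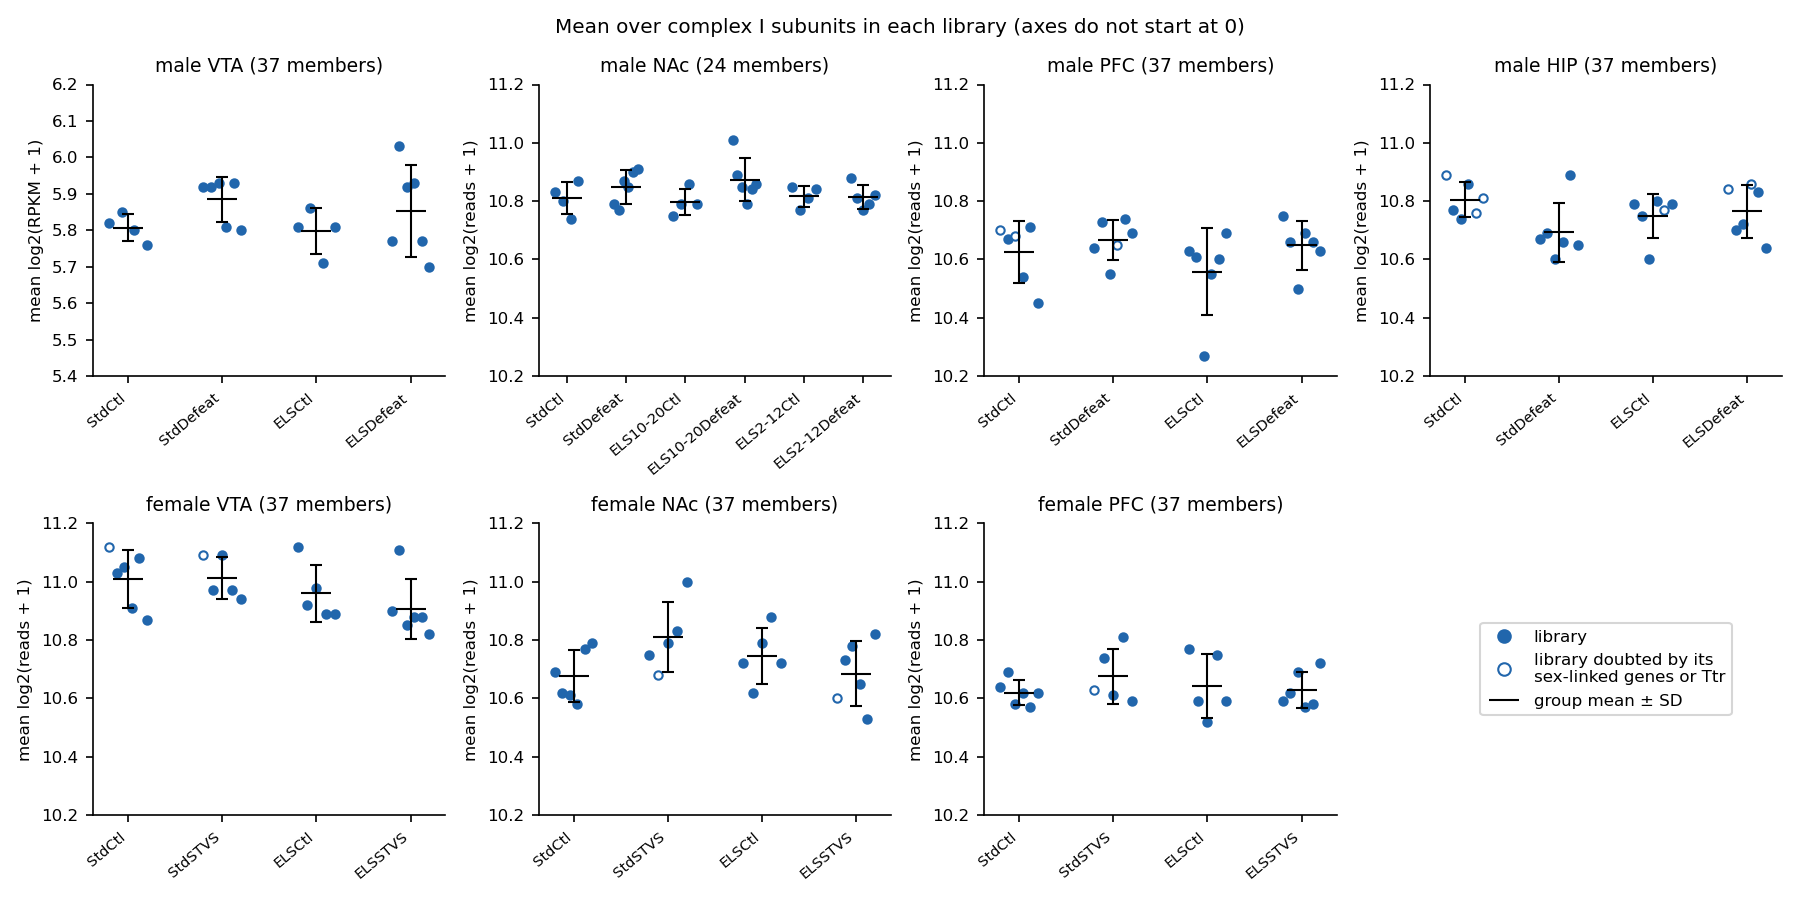
Mean of log2(value + 1) over complex I members in each of the 163 libraries, with group mean ± SD, for 7 region and sex sets (axes do not start at 0; male VTA is in RPKM and male NAc has 24 members, so levels compare only within a panel or between panels of 37 members in reads). Open points are the 14 doubted libraries. Groups overlap in every panel, and ELSCtl replicate 4 of male PFC stands lowest at 10.27.

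In female VTA no member was above 0 when ELS and variable stress were combined against StdCtl. The median was -0.11, and 11 of 37 had an unadjusted p under 0.05 against 11.6% of all genes, among them Ndufa4 (-0.18 ± 0.08), Ndufa11 (-0.16 ± 0.07), the core subunit Ndufs8 (-0.15 ± 0.06) and Ndufb5 (-0.14 ± 0.06). Core and accessory medians were alike at -0.10 and -0.11, and other genes under 600 coding bases were at -0.03. The member mean ran from 10.87 to 11.12 in StdCtl (median 11.04) and from 10.82 to 11.11 in ELSSTVS (median 10.88). Complex IV and ATP synthase lists had medians of -0.14 and -0.10. Dopamine neuron markers had a median of 0.44 and oligodendrocyte markers -0.16, and their part was not tested.

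In the pooled male VTA libraries defeat alone gave a median of 0.08, with 36 of 37 members above 0 against 41.1% of all genes. Of the 37 members 3 (8.11%) had an unadjusted p under 0.05, near the 6.56% of all genes. Ndufv3, an accessory subunit of the NADH-oxidising module, had 34.0, 33.3, 33.1, 30.4, 33.0 and 31.8 RPKM in StdDefeat and 31.5, 29.5, 27.5 and 27.8 in StdCtl. The groups overlapped through 1 StdDefeat library, and the log2 fold change was 0.16 ± 0.05 (adjusted p = 0.691). Ndufb2 was the 1 member below 0, at -0.01, and turned above 0 with quantile normalisation. Without StdCtl replicate 4 the member median was 0.05. Mitochondrially encoded complex I transcripts had a median of 0.09, with 6 of 6 measured above 0. Blood markers were higher by a median of 1.16 and dopamine neuron markers by 0.47, and their part was not tested.

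In male NAc, defeat after ELS on days 10 to 20 gave a median of 0.07 over the 24 members, all at or above 0, with 4 at p under 0.05 against 8.41% of all genes. Other genes under 600 coding bases had a median of 0.05 there. Without Defeat replicate 1 of that window the member median was 0.04. Defeat after ELS on days 2 to 12 gave -0.01. Defeat alone gave 0.04, with Ndufa7 again of smallest p (0.14 ± 0.06, adjusted p = 1). Ndufa7 ran from 1397 to 1758 normalised reads in StdDefeat and stood at 1300, 1438, 1561 and 1451 in StdCtl, overlapping.

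In male PFC, defeat after ELS gave a median of 0.09. At p under 0.05 were 7 members, 6 higher and 1 lower, a share of 18.9% that was near the 16.7% of all genes. The lower one was Ndufb2 (-0.21 ± 0.08), and the higher ones included Ndufa1 (0.25 ± 0.10) and Ndufa13 (0.21 ± 0.09). This median rested on 1 library: without ELSCtl replicate 4, whose member mean was 10.27, it was 0.03. ELS alone gave -0.06 there, -0.03 without the doubted libraries and 0.00 without the same ELSCtl replicate 4, with Ndufa1 at 517 to 929 normalised reads in ELSCtl and 733 to 977 in StdCtl (-0.25 ± 0.10, adjusted p = 1).

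In female PFC 1 of 37 members had groups that did not overlap after stress alone, against 0.6% of all genes. This member, Ndufv2, a core iron-sulphur subunit, stood at 2857, 2941, 2834, 2891 and 3037 normalised reads in StdSTVS and at 2459 to 2712 in StdCtl (median 2629). The log2 fold change was 0.15 ± 0.04 (adjusted p = 0.861). ELSCtl was also above, at 2913, 2799, 2720.3, 3044 and 2906 (0.14 ± 0.04, adjusted p = 1), where it was again the 1 member without overlap, against 0.343% of all genes. ELSSTVS lay between at 2695 to 2905. The interaction for Ndufv2 was -0.20 ± 0.05 (adjusted p = 0.584). Over all members the median was 0.05 after stress alone and 0.03 after ELS alone.

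ELS alone left small medians elsewhere: -0.01 in male VTA, -0.01 (late window) and 0.00 (early window) in male NAc, -0.06 in male HIP, -0.06 in female VTA and 0.07 in female NAc. None of these contrasts had more than 1 member at an unadjusted p under 0.05, but the number of all genes at that threshold differed between them. It was largest in female NAc, at 1569 of 14000 genes against 0 of 37 members. It was smallest in male VTA, at 296 of 14586 genes against 0 of 37 members. Adult stress alone gave 0.04 in male PFC (0.08 without the doubted libraries) and 0.00 in female VTA.

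**Figure D5:**
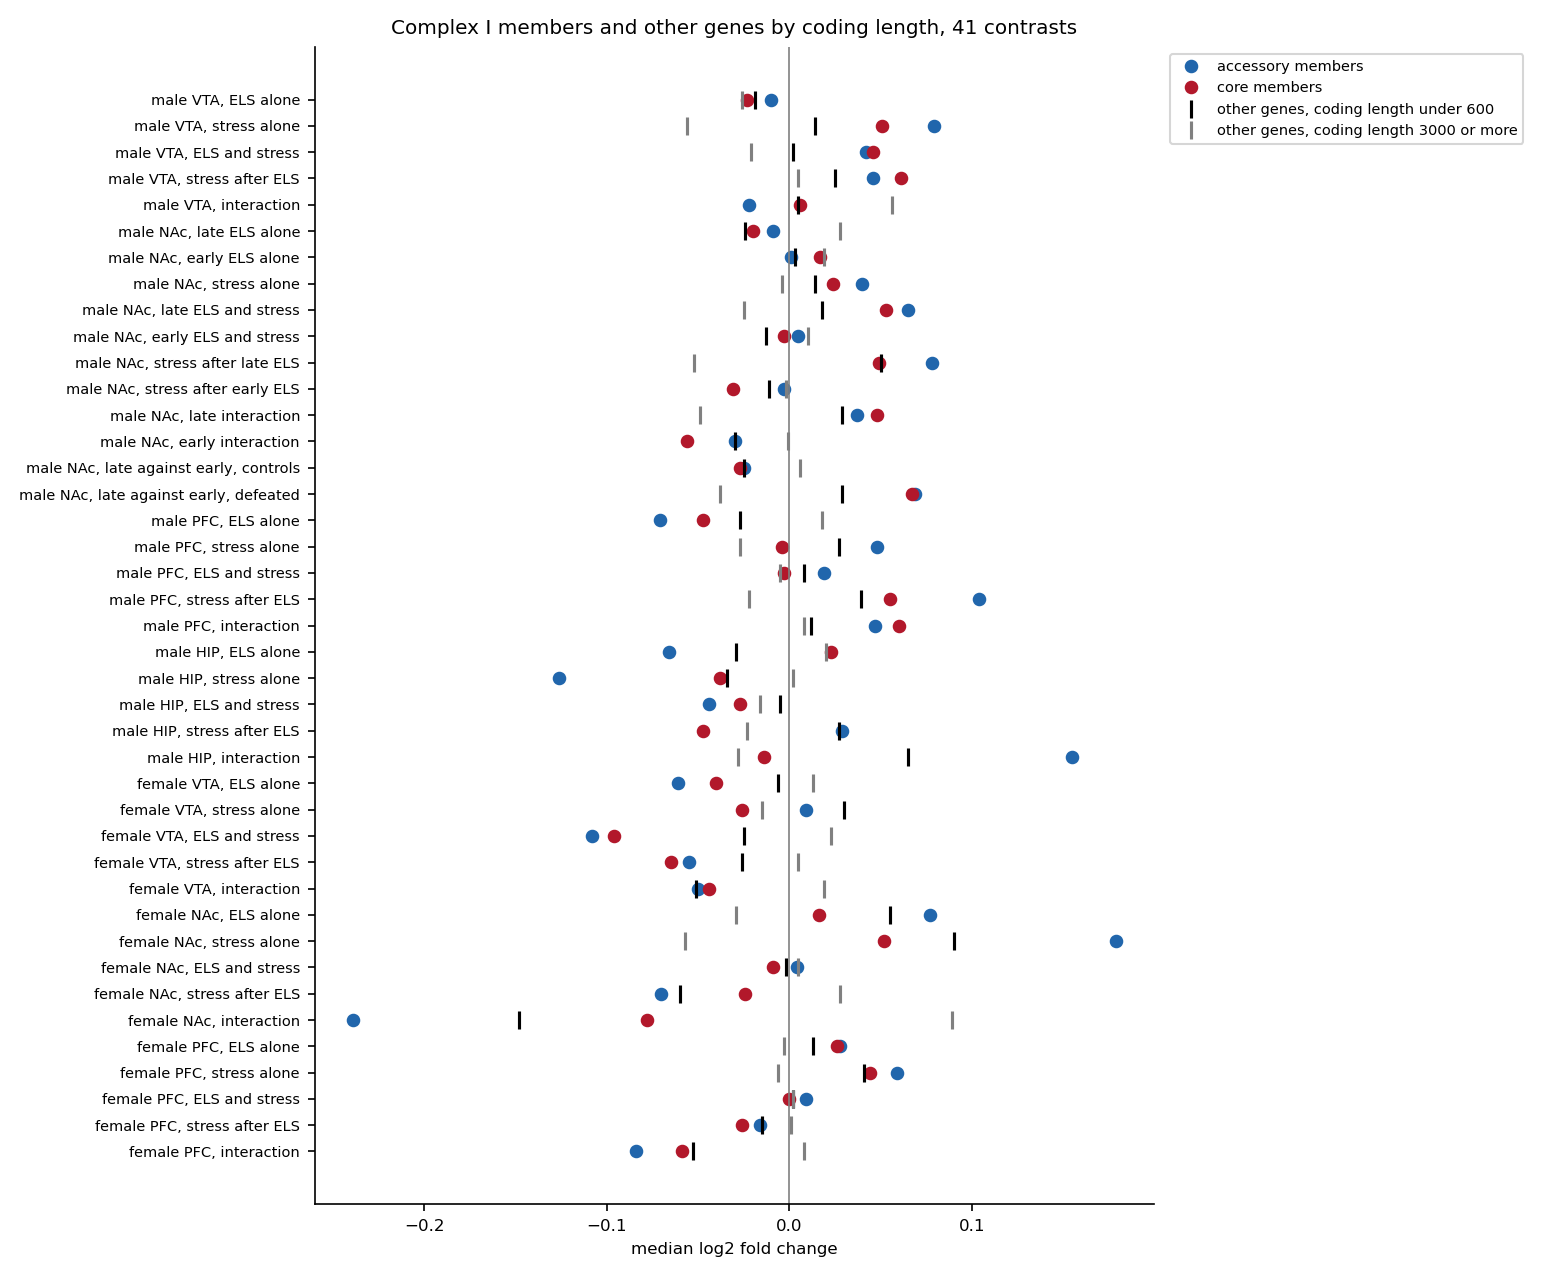
Median log2 fold change in each of the 41 rearing and stress contrasts for accessory members (blue), core members (red), other tested genes with coding length under 600 bases (black bar) and of 3000 or more (grey bar). Accessory members lie farthest from 0 in female NAc (0.18 and -0.24) and male HIP (-0.13 and 0.16), with short genes on the same side.

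Coding length was followed beside these medians because most members are short, with coding lengths from 213 to 2184 bases (median 450). In stress alone and in the interaction, in both male HIP and female NAc, the accessory median lay farther from 0 than the core median, and the median of other short genes was on the accessory side of 0 and nearer to it. In female VTA with ELS and stress the core and accessory medians were alike. How much of the member medians coding length accounts for was not tested.

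The members varied together from library to library within groups. After group means were removed, the first principal component held 72.9% of the members' variance in male VTA against 30.1% over all genes tested. The pairs were 69.2% and 21.2% in male PFC, 70.1% and 25.1% in female VTA, 60.2% and 22.5% in female NAc, 53.1% and 25.4% in male HIP, 52.7% and 22.2% in female PFC, and 42.2% and 12.0% in male NAc (24 members). These are descriptions over libraries that share their scaling factor across genes. The all-gene share comes from a far larger set of mixed levels, and no set matched in number or level stands beside the members. Some members kept apart: Ndufb2 was on the same side as the mean of members in 10 of 24 male PFC libraries, 10 of 24 male HIP libraries and 12 of 20 male VTA libraries. Ndufc2, a membrane-arm subunit, was on the same side in 5 of 22 female PFC libraries, and the core subunit Ndufs1 in 10 of 22 female NAc libraries. By contrast Ndufs6 was on the same side in 22 of 22 female NAc libraries, and Ndufa5, Ndufb11, Ndufc1 and Ndufv3 in 20 of 20 male VTA libraries.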

How the data were processed

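Per the labels' protocols, libraries were unstranded TruSeq (poly-A RNA) with groups balanced over multiplexes. Reads of antisense partners therefore cannot be told apart by strand. The authors deposited male VTA as RPKM. In the other sets the signal that the authors deposited is normalised reads (counts scaled by a single factor for each library), and whole reads were recovered from it for 100% of positive values (tolerance 0.001). Builds mm9 and mm10 and the tools MACS2 2.1.1, SAMtools 0.1.19, Bowtie2 2.2.0, TopHat2, HTSeq and HISAT appear in the submitters' processing notes; the sources used here do not say which build served the RPKM values.

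Tests never crossed the 3 tables, which were normalised separately. The main model was limma 3.58.1 in R 4.3.3 (robust, with trend) for log2(value + 1), a separate fit for every region and sex with a coefficient for each group, over the 14000 genes of highest mean (in male VTA, 14586 genes whose RPKM averaged 0.5 or more). Adding 1 before the log2 makes changes of low genes look smaller. There were 41 rearing and stress contrasts and 4 region contrasts in 9 fits, called at a Benjamini-Hochberg adjusted p under 0.05. The fitting step was tested on simulated data for the first contrast of each fit, and the other steps were not. edgeR 4.0.16 (quasi-likelihood, TMM) on recovered reads was an alternative.

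Members and lists were chosen with earlier results of these data known, so no test over the list is given. For 1 member no values are reported here; counts, ranks and medians over members include it. Named were core and X-linked members, Ndufab1, Ndufa4, the 3 highest and 3 lowest by RPKM, in region contrasts the 5 called members of largest fold each way, and in ELS alone and stress alone the member of smallest p each way; other members with p under 0.05 were named after their values were seen. A library was doubted with over 200 normalised reads of Xist in a male, over 50 of Ddx3y in a female, Xist under 0.5 of the region's median in a female, or over 10000 of Ttr. For 10 female NAc libraries the adult label repeats the sex, and their titles gave the group. All 328 pairs of libraries of 1 group with recovered reads differed by more than sampling noise (lowest chi-square per gene 2.80, genes with at least 10 reads). Libraries are separate tissue samples. The series' 16 samples of chromatin or input DNA were not used here.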

Additional observations from a re-analysis of the deposited data

Results flagged for a closer look

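In 4 of the 30 groups of 4 to 6 libraries, 1 library's mean of log2(reads + 1) over the complex I members stood apart from the rest of its group by its gap to the nearest other library; chance alone does this in about 1 group in 20. In female VTA, ELSSTVS replicate 1 was at 11.11 where the others ran from 10.82 to 10.90. In male HIP, ELSCtl replicate 3 was at 10.6 where the others ran from 10.75 to 10.80. Also in male HIP, StdDefeat replicate 4 was at 10.89 where the others ran from 10.60 to 10.69. In male PFC, ELSCtl replicate 4 was at 10.27, the lowest of all libraries with 37 members in reads, where the others ran from 10.55 to 10.69. None of these libraries was doubted by its sex-linked genes or Ttr.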

How the results depend on the processing

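In the 41 rearing and stress contrasts 0 members were called under every alternative run: no filter on low values, quantile normalisation, edgeR on recovered reads, a pseudocount of 0.1 (male VTA), the replicate block (all sets but male NAc), each library left out in turn, without the 14 doubted libraries, and without the 10 female NAc libraries whose adult label repeats the sex. Region counts that moved by over 1.5 times were these. Members lower in VTA than in NAc went from 1 to 0 without the filter and to 3 with all groups of each region, and from 0 to 1 when libraries were left out. Members lower in VTA than in PFC went from 0 to 1 with all groups. Members lower in NAc than in PFC went from 5 to 2 with quantile normalisation and to 2 with edgeR, and from 3 to 5 with libraries left out. Members higher in HIP than in PFC went from 18 to 28, and lower from 0 to 1, with all groups. Named members that changed sign were all near 0. Ndufb2 in male VTA after stress alone (-0.01) was 0.02 with quantile normalisation, 0.01 with the replicate block and -0.04 to 0.01 with libraries left out. Ndufb4 in male HIP after stress alone (0.04) was -0.09 without the doubted libraries and 0.00 to 0.07 with libraries left out. Ndufb3 in female PFC after stress alone (-0.01) was 0.01 without the doubted library and -0.05 to 0.03 with libraries left out. With libraries left out, the ELS alone values ran from -0.01 to 0.03 for Ndufv3 in female VTA, -0.05 to 0.01 for Ndufs3 in female NAc and -0.11 to 0.01 for Ndufs7 in female PFC.

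Replicate numbers recur across groups, and whether they mark shared mice or batches cannot be settled here. In no set did every same-numbered pair correlate above 0.1 in deviations from group means (lowest r from -0.86 to -0.11). In female PFC 17 of 31 such pairs did (median r 0.12, other pairs -0.03), and 12 of 22 libraries matched their own number best. In female VTA 18 of 31 did (0.17, other pairs -0.04), and in the female region fit 2 of 18. With the replicate block as a term, region calls higher and lower were 32 and 1 (VTA, NAc), 34 and 0 (VTA, PFC), 13 and 5 (NAc, PFC) and 18 and 0 (HIP, PFC), and 0 members were called in the rearing contrasts.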
